A study of Mus musculus with 36 samples.

Results

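Solute carriers are the membrane proteins that move sugars, amino acids, ions, metals, vitamins and metabolites across the plasma membrane and the inner mitochondrial membrane. They were followed here as the probe sets whose single gene symbol has the form of a solute carrier name, Slc, a family number, the letter a and a member number, with Slc27a1 and Slc2a4 kept out. The rule gave 172 of the 12488 probe sets of the array, for 140 of 8253 genes with a probe set of a single symbol, and 27 of these genes had more than 1 probe set. It also takes in 3 genes whose names only derive from a carrier, Slc4a1ap, Slc9a3r1 and Slc9a3r2, which encode proteins that bind carriers.

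In skeletal muscle, carriers bring glucose, lactate, creatine, carnitine and amino acids into the fibre, set its chloride, calcium and proton balance, and exchange phosphate, adenine nucleotides, acyl-carnitine and metabolites with the mitochondrial matrix. Other carriers mark other cells. Hepatocytes take up bile acids and release glucose through their own carriers, and macrophages pump metals out of the phagosome.

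The arrays (Affymetrix MG_U74Av2) measured RNA of the diaphragm, soleus, EDL (extensor digitorum longus), gastroc (gastrocnemius), quadriceps and TA (tibialis anterior). The mice were mdx and mdx5cv, which both have a mutated dystrophin gene (Dmd), and C57BL10 as controls. Every sample was RNA pooled from 5 male mice of 8 weeks, and samples 1 and 2 were deposited for each strain in each muscle, or 18 groups. The labels name no treatment and do not say whether samples 1 and 2 are separate pools, so p-values measure only the spread between these samples.

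Several columns needed care before any comparison. mdx gastroc sample 2 and mdx5cv gastroc sample 1 held the same values as quadriceps columns of their strain in all 12488 probe sets and were left out, which left 11 mdx, 11 mdx5cv and 12 C57BL10 arrays. The description of mdx EDL sample 1 names mdx5cv, against its title. The experiment files of 4 mdx5cv arrays, sample 1 of diaphragm, EDL, quadriceps and soleus, describe mdx mice in the same words as those of mdx arrays, and all were grouped by their titles, so differences between mdx5cv and mdx rest on the titles. mdx5cv quadriceps sample 2 and C57BL10 TA sample 2 stood apart, with median rank correlations to the other arrays of 0.764 and 0.615. A list of 4 slow-fibre genes averaged a log2 signal of 15.02 and 15.09 in mdx5cv EDL, against 11.985 and 12.035 in mdx EDL and 11.5 and 11.4 in C57BL10 EDL, so counts are also given without the EDL, an alternative chosen after the data were seen. Scan days fell into 4 periods: the first held only C57BL10 arrays (5), the second only mutant arrays (5 mdx and 4 mdx5cv), and the third all 3 strains (5 mdx, 6 mdx5cv and 4 C57BL10). C57BL10 TA sample 1 was alone in the fourth, and 4 arrays, C57BL10 TA sample 2 among them, were given no period. The Dmd probe set used as a check had a median signal of 217 in mdx, 302 in mdx5cv and 668 in C57BL10 arrays. The 6 skeletal muscle fibre genes averaged a log2 signal of 14.2 to 16.1 on every array.

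Levels are signals on the authors' linear scale, and differences are log2 differences after values under 118 were raised to that floor. A probe set was tested where its mean log2 signal reached 8.45, which 94 of the 172 member probe sets did (86 genes), and 54 genes had none that passed. On 41 member probe sets the floor was reached on at least 50% of arrays. The share of probe sets that passed was 20 of 24 for mitochondrial carriers, 17 of 23 for metal carriers, 19 of 43 for carriers of amino acids and neurotransmitters, 4 of 11 for families of sugar carriers and 0 of 4 for fatty acid carriers. Carriers were sorted by family number alone, so the 4 in sugar families include Slc5a6, a vitamin carrier. Calls are limma adjusted p-values under 0.05 over all 7453 probe sets tested. In RNA of whole muscle, fewer cells of a type and less RNA per cell cannot be told apart.

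Carriers of the hepatocyte were far higher in the diaphragm than in limb muscle. Slc10a1, the sodium-dependent bile acid carrier of the hepatocyte, had signals of 6077 and 7303 in mdx diaphragm, 2045.5 and 2355 in mdx5cv diaphragm, and 8856 and 9662 in C57BL10 diaphragm. The 28 limb arrays ran from 37 to 1146.5 with a median of 167. Every diaphragm array lay above every limb array, and the difference was 4.67 ± 0.34 log2 (SE, limma adjusted p = 6.17e-11), which is too small since 11 limb arrays lay at the floor. Another probe set of the gene gave 2052 to 13448 in the diaphragm and 14.9 to 1121 in limb muscle. The third stayed at 65.0 or less in the diaphragm and did not show the difference.

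Slc2a2, the glucose carrier GLUT2 of liver and beta cells, had 4369.5 and 6539.5 in mdx diaphragm, 1079.5 and 1183 in mdx5cv diaphragm, and 6525 and 6845 in C57BL10 diaphragm, against 22.3 to 451 in limb muscle (median 72.2). Slc27a2, which activates and imports very long chain fatty acids, had 4937 and 5505 in mdx, 1821 and 1451 in mdx5cv, and 4752 and 5058 in C57BL10 diaphragm, against 8.2 to 430 in limb muscle (median 31.8). Slc27a5, the bile acid CoA ligase of liver, had 4367 and 4193 in mdx, 2845 and 2228 in mdx5cv, and 4529 and 4853 in C57BL10 diaphragm, against 30.5 to 884 in limb muscle (median 85.2). In all 3 genes no diaphragm array overlapped the limb arrays, and mdx5cv held the lowest diaphragm values. Their means over all arrays were too low for the filter, and a fit without it gave 4.60, 4.73 and 4.55 log2 (adjusted p of 4.13e-12 or less), differences that the floor makes too small.

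The RefSeq table used here (GRCm38.p6) held 162 promoter windows for 114 of the 140 genes, each of 250 bases before to 50 after a transcription start. Windows are shown for some of the carriers that were higher in the diaphragm, of which Slc38a4 and Slc6a13 also had signal in limb muscle. They run 5′ to 3′, with capitals on TATAAA or on GTTAAT, a core of sites of the liver factor HNF1, on either strand. Where a gene has several windows, the one with a match is shown.
Slc10a1, chr12:80968656-80968955, minus strand: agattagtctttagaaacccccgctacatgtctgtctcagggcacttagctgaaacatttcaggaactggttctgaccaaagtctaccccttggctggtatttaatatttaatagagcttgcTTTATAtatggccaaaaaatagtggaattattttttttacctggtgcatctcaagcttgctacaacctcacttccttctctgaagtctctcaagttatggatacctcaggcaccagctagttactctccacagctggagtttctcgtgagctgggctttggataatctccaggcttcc
Slc2a2, chr3:28697653-28697952, plus strand: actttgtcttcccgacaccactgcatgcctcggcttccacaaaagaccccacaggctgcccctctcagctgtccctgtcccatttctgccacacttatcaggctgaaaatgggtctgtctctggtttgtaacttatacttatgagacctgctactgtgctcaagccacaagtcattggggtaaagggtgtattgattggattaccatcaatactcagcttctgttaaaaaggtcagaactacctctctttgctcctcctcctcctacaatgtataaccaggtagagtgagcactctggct
Slc38a4, chr15:97031164-97031463, minus strand: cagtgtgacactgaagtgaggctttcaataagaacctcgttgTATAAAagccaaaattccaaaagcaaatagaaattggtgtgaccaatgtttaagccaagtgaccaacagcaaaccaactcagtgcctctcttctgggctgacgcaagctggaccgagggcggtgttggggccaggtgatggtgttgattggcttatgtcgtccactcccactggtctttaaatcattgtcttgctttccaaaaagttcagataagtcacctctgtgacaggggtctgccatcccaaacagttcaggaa
Slc6a13, chr6:121300490-121300789, plus strand: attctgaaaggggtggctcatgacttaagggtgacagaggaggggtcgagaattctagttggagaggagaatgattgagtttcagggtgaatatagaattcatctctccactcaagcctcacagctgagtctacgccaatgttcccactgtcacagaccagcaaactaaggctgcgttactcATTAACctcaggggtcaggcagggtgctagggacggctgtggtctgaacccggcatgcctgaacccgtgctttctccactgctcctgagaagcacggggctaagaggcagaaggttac
The Slc10a1 and Slc38a4 windows hold TATAAA, the Slc6a13 window holds GTTAAT, and the Slc2a2 window holds neither. Nor does the window of Slc27a2, which is not shown. TATAAA was in 4 of the 20 windows of hepatocyte-enriched carriers (9 genes) and in 13.6% of all 32851 promoter windows. GTTAAT was in 0 of these 20 windows against 7.1% of all windows, and AAAGTCC, an HNF4-type core, in 0 of 20 against 4.21%. Neither count bears on binding of a factor, since only these letters in these windows were searched.

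A list of 18 hepatocyte-enriched carriers had 11 genes and 13 probe sets on the array. Of the 6 tested, Slc10a1 passed the filter only through the diaphragm. Of the other 5, 4 were higher and 1 lower in the diaphragm, with a median difference of 1.18 log2, against 11.8% higher, 18.3% lower and a median of -0.13 over all probe sets tested. Slc25a47, a mitochondrial carrier found mostly in hepatocytes, had 6243 and 5809 in mdx, 1920 and 1632 in mdx5cv, and 6241 and 5814 in C57BL10 diaphragm, against 191 to 1058 in limb muscle (2.65 ± 0.17 log2, adjusted p = 7.08e-12). No array overlapped between diaphragm and limb. Slc25a15, the ornithine carrier of the urea cycle, differed by 1.63 ± 0.18 log2, Slc38a4, which imports neutral amino acids, by 1.18 ± 0.17, and Slc7a2, which imports arginine, by 0.72 ± 0.21 (adjusted p = 1.60e-07, 7.16e-06 and 0.0103). These 3 genes had limb signals with medians of 2011, 3901 and 1357, so their difference stood on a level that limb muscle also had.

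The list was not uniform. Slc37a4, which moves glucose 6-phosphate into the endoplasmic reticulum, was lower in the diaphragm by -0.73 ± 0.19 log2 (adjusted p = 0.00450), and that call was lost with C57BL10 groups alone (-0.55, adjusted p = 0.28). Slc6a12, a betaine and GABA carrier, differed by 0.31 log2 in the unfiltered fit (adjusted p = 0.526). Slc26a1, a sulfate exchanger, reached 1336 and 1421 in C57BL10 diaphragm and 785 in mdx diaphragm sample 1, but only 41 in mdx sample 2 and 56.4 and 30.9 in mdx5cv diaphragm, against 21.3 to 380 in limb muscle. In the unfiltered fit 44 of 172 member probe sets were called, against 19% of all 12422 in that fit, and 9 of the 44 were untested before. Beside those named, these were Slc22a30 (3.55 log2), Slc16a7, a monocarboxylate carrier (1.25), Slc39a8, a zinc and manganese importer (1.23), and Slc46a1, the proton-coupled folate carrier (0.99).

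**Figure D1:**
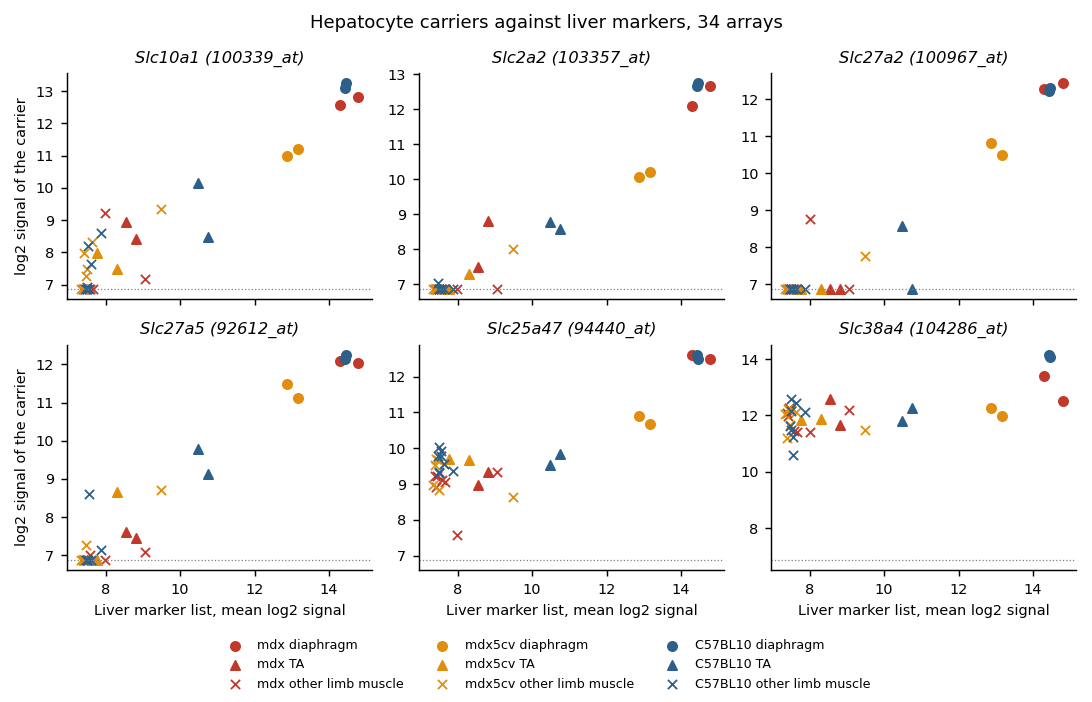
Log2 signal of 6 hepatocyte-enriched carriers (y) against the mean log2 signal of 13 liver genes (x) on 34 arrays, with circles for diaphragm, triangles for TA, crosses for other limb muscles, colours for strains and a dotted line at the floor. The 6 diaphragm arrays lie at the right, with mdx5cv to the left of mdx and C57BL10, and Slc38a4 also has signal in limb muscle.

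Genes known for their expression in liver were high in the same arrays. The list of liver genes was measured by 13 of 15 members, none of them at the floor on a diaphragm array. Its mean log2 signal was 14.3 and 14.8 in mdx diaphragm, 12.9 and 13.2 in mdx5cv diaphragm, and 14.4 and 14.5 in C57BL10 diaphragm. In TA it was 8.55 and 8.81 in mdx, 7.78 and 8.30 in mdx5cv, and 10.7 and 10.5 in C57BL10, and in the other limb muscles 7.34 to 9.48. Summed signals of the list were 191831 to 689827 in the diaphragm, 4277 to 52560 in TA and 4458 to 18231 in other limb muscles. Albumin was at the floor on 13 of 22 other limb arrays and had 81168 to 197368 in the diaphragm. C57BL10 TA sample 2 had the highest limb signal of Slc10a1 (1146.5), Slc27a5 (884) and Slc22a30 (1012), but its signals were high at large: its 1st percentile was 217.7 and its median 1026, against 15.8 and 578 in C57BL10 TA sample 1, where the liver list was higher. The part of liver RNA in these differences was not tested.

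Over all members, 35 of 94 probe sets (33 genes) differed between diaphragm and limb muscles, or 37.2%, against 30.1% of all probe sets tested. Of these, 20 were higher, against 11.8% of all tested, and 15 lower, against 18.3%. Slc10a1, Slc22a18 and Slc25a10 passed the filter only through the diaphragm, so a difference was built into their selection. Among the 20, Slc10a1 and Slc25a47 alone had every diaphragm array above every limb array. Over all members, tested or not, 7 did, and 0 had every diaphragm array below every limb array. The share of all probe sets tested without such overlap is not given here, so these counts have no background to compare with.

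Slc25a10, which exchanges dicarboxylates for phosphate, had 2128 and 1267 in mdx, 1074.5 and 603.5 in mdx5cv, and 3175 and 2695 in C57BL10 diaphragm, against 130 to 878 in limb muscle (2.28 ± 0.32 log2, adjusted p = 6.44e-06). Only mdx5cv diaphragm sample 2 fell within the limb range. Slc25a1, the citrate carrier, was higher by 1.35 and 0.63 log2 with its probe sets (adjusted p = 7.39e-09 and 0.0202). Slc6a13, a GABA and taurine carrier, had 3826 and 3039 in mdx, 2147 and 2056 in mdx5cv, and 5612 and 4271 in C57BL10 diaphragm, against 767 to 2585 in limb muscle (1.57 ± 0.15 log2, adjusted p = 9.44e-09). The highest of those limb values was C57BL10 TA sample 2.

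Slc22a18, of the organic cation family, was higher by 2.47 ± 0.27 log2 (adjusted p = 1.22e-07), and the scaffold gene Slc9a3r1 by 2.23 ± 0.20 (adjusted p = 3.39e-09). Of 17 tested probe sets of metal carriers 3 were higher and 3 lower. The copper importer Slc31a1 was higher with both probe sets (1.19 and 0.60 log2, adjusted p = 3.93e-05 and 4.28e-04). The zinc importer Slc39a4 was higher by 1.46 ± 0.20 log2 with 1 probe set (adjusted p = 3.90e-06), while the other gave 0.08 (adjusted p = 0.806). The choline carrier Slc44a1 was higher by 1.44 ± 0.31 (adjusted p = 8.06e-04). Of 7 mitochondrial carrier probe sets that were higher, the remaining ones belong to Slc25a5, the adenine nucleotide carrier ANT2 (0.93 log2 with 1 of 2 tested probe sets), and Slc25a39, a glutathione carrier (0.98). The remaining calls upward were the potassium-chloride exporter Slc12a7 (1.08), the nucleoside carrier Slc29a1 (0.65) and Slc66a2 (0.49).

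Of the 15 lower probe sets, 4 were of mitochondrial carriers. The phosphate carrier Slc25a3 had 245 and 508 in mdx, 563 and 395 in mdx5cv, and 546 and 165 in C57BL10 diaphragm, against 186.5 to 1213 in limb muscle (-0.93 ± 0.22 log2, adjusted p = 0.00255). The oxoglutarate-malate carrier Slc25a11 had 5058 and 7929 in mdx, 7002 and 8132 in mdx5cv, and 6262 and 6345 in C57BL10 diaphragm, against 7100 to 19591 in limb muscle (-0.92 ± 0.17 log2, adjusted p = 1.76e-04). In both genes the ranges overlapped. The lowest was Slc44a2, of the choline carrier family (-1.05 ± 0.15 log2, adjusted p = 9.96e-06), followed after Slc25a3 and Slc25a11 by the zinc carriers Slc30a4 (-0.89) and Slc30a9 (-0.81), with the chloride importer Slc12a2 (-0.83) between them.

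The sodium-calcium exchanger Slc8a1 was lower by -0.69 ± 0.17 log2 with the 1 of its 3 probe sets that was tested. Slc25a51, the mitochondrial NAD carrier, was lower with 1 of 2 probe sets (-0.58 ± 0.14 log2, adjusted p = 0.00355), which did not reach the threshold in C57BL10 alone (adjusted p = 0.099). Slc38a5, an amino acid carrier, lost its call without mdx5cv diaphragm sample 2 (-0.65, adjusted p = 0.0523) and Slc4a1ap without C57BL10 diaphragm sample 1 (-0.58, adjusted p = 0.0784). The zinc importer Slc39a1 (-0.52) lost its call in 4 of 32 fits that left out 1 array, with -0.33 and an adjusted p of 0.239 without mdx5cv diaphragm sample 2. The list of 6 fibre genes was itself lower in the diaphragm, with a median of 14.4 against 15.5 in TA and 15.2 in the other limb muscles. The slow-fibre list ran the other way, with medians of 15.06, 11.1 and 13.95. The part of either list in these differences was not tested. The smaller calls downward were Slc4a3 (-0.51), Slc25a28 (-0.42) and Slc6a8 (-0.40), so 3 of the 8 tested fibre energy carriers, Slc25a3, Slc25a11 and Slc6a8, were lower, against 18.3% of all probe sets tested. With C57BL10 groups alone 28 of the 35 calls held, without TA 32, and without the EDL 33. Of all probe sets tested, 16.1%, 28.3% and 28.6% were called in these fits. Beside Slc37a4 and Slc25a51, C57BL10 alone lost Slc66a2, Slc6a8, Slc25a28, Slc38a5 and Slc39a1 (adjusted p = 0.105, 0.138, 0.189, 0.125 and 0.25). Without TA the calls of Slc66a2, Slc25a28 and Slc39a1 were lost (adjusted p = 0.0699, 0.0553 and 0.059). With scan period as a block, on the 30 arrays with a scan day, 31 held, with 29.7% of all tested called. Slc38a5, Slc39a1, Slc4a3 and Slc25a28 lost their calls there (adjusted p = 0.0760, 0.105, 0.0756 and 0.121).

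**Figure D2:**
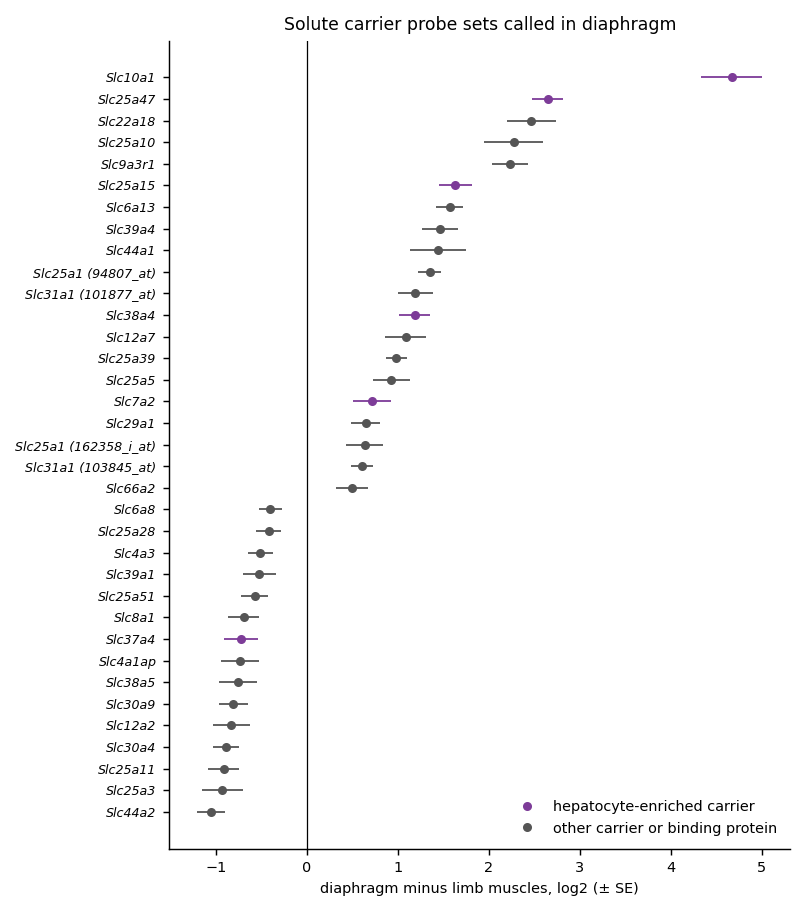
Diaphragm minus limb muscles for the 35 solute carrier probe sets called, as log2 differences with standard errors over 34 arrays, with hepatocyte-enriched carriers in purple. Slc10a1 at 4.67 and Slc25a47 at 2.65 lie highest, and Slc37a4 is the single hepatocyte-enriched carrier below 0.

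The change that the mutants showed in the diaphragm was compared with their mean change in the limb muscles. None of the 94 probe sets passed the limma threshold (7 at an unadjusted p under 0.05), against 0.228% of all tested (0.0537% higher and 0.174% lower). Slc38a4 had signals of 10883 and 5860 in mdx diaphragm, 4903 and 4006 in mdx5cv diaphragm, and 18114 and 17255 in C57BL10 diaphragm. Its limb range of 1565 to 6166 overlapped the mutant diaphragms and not the C57BL10 ones. The contrast was -1.64 ± 0.36 log2 (adjusted p = 0.0520), and for Slc25a15, with 6885 and 4199 in mdx, 3240 and 3317 in mdx5cv, and 14841 and 11063 in C57BL10 diaphragm, it was -1.68 ± 0.38 (adjusted p = 0.0656). All 6 tested hepatocyte-enriched probe sets had a contrast below 0, with a median of -1.01 log2, against 0.01 over all tested. Slc10a1, 1 of the 6, passed the filter only through the diaphragm. Of all 94 member probe sets 67 were below 0 too, with a median of -0.23 log2. The mean of the liver gene list was lower in mdx5cv diaphragm than in C57BL10 diaphragm, while that of mdx diaphragm was close to C57BL10. Single genes of the list were not all close in mdx. Tat had 20741 and 21207 in mdx against 31641 and 31808 in C57BL10 diaphragm, and albumin 93195 and 197368 against 97765 and 91415. A joint test of whether the mutant change differed among the 6 muscles called none of the 94 probe sets (9 at an unadjusted p under 0.05), against 0.644% of all tested. Its lowest adjusted p was 0.0974, again for Slc38a4. Without C57BL10 TA sample 1 it called 12 members, with C57BL10 TA then represented by the array with the lowest correlation. The share over all tested in that fit is not given here.

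In mdx muscle, 12 of 94 member probe sets differed from C57BL10 in the mean over 6 muscles, or 12.8%, against 15.9% of all tested. Of these, 6 were higher, against 10.1% of all tested, and 6 lower, against 5.81%. In mdx5cv muscle 15 differed, or 16%, against 15% of all tested, with 7 higher, against 10.6%, and 8 lower, against 4.43%. Both comparisons use the same C57BL10 arrays, and 6 probe sets were called in both with the same direction: Slc11a1, Slc10a3, Slc39a6, Slc4a3, Slc9a3r2 and Slc25a47.

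The counts were also taken with scan period as a block, which leaves only the 30 arrays with a scan day. Those 30 arrays without the block, a fit chosen after the data were seen, gave 13 calls in mdx, 7 of them among the 12, against 15.9% of all tested, and 15 in mdx5cv, 12 of them among the 15, against 15.9%. With the block 8 members were called in mdx, 1 of them among the 12, against 11.1% of all tested, and 7 in mdx5cv, 5 of them among the 15, against 11%. The 15 arrays of the third period were also fitted alone, a fit again chosen after the data were seen. No strain had more than 1 of these arrays in a muscle. That fit therefore has no spread between samples of a group, and only its differences are given. The 4 C57BL10 arrays in it are of EDL, gastroc, quadriceps and soleus, so it is not a mean over 6 muscles. With the diaphragm left out of the mean, 7 of the mdx calls and 6 of the mdx5cv calls held, against 13.5% and 12.5% of all tested. mdx gave 23 calls without mdx5cv quadriceps sample 2 and C57BL10 TA sample 2, where calls over all tested also rose, to 21.6%. It gave 21 without C57BL10 TA sample 1, for which the share over all tested is not given here.

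Slc11a1, the metal pump of the macrophage phagosome, was higher in both mutants. Its signal ran from 106 to 1547 with a median of 714 in mdx, from 306 to 1656 with a median of 919 in mdx5cv, and from 76.5 to 554 with a median of 406 in C57BL10. The mdx5cv mean was above C57BL10 in 6 of 6 muscles and the mdx mean in 4 of 6. The ranges overlapped, and the mean differences were 0.87 ± 0.25 log2 for mdx (adjusted p = 0.0203) and 1.23 ± 0.25 for mdx5cv (adjusted p = 0.00121). With scan period as a block they were 0.98 (adjusted p = 0.0622) and 1.38 (the call held). The quadriceps showed it most, with 1246 and 1547 in mdx, 973 and 350 in mdx5cv, and 76.5 and 173 in C57BL10, while mdx soleus had 375 and 106, below 470 and 492 in C57BL10 soleus.

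A list of 9 macrophage genes, all measured, averaged a log2 signal of 10.8 to 12.5 in mdx, 10.9 to 12.5 in mdx5cv and 9.0 to 10.3 in C57BL10 arrays, with summed signals of 21699 to 71525, 25954 to 67378 and 6099 to 17030. The mutant and C57BL10 arrays did not overlap in it. Its part in the Slc11a1 difference was not tested. Of the list of 7 macrophage carriers, 3 genes were on the array and only Slc11a1 was tested.

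Slc1a4, a carrier of alanine, serine and cysteine, differed most in mdx5cv. Its signal ran from 719 to 1718 with a median of 957 in mdx5cv and from 137 to 2144 with a median of 231 in C57BL10, while mdx ran from 78.6 to 829.5 with a median of 684. All mdx5cv arrays lay above 9 of the 12 C57BL10 arrays, and only C57BL10 TA sample 2 (2144), soleus sample 1 (987) and diaphragm sample 2 (776) reached into their range. The difference was 1.55 ± 0.39 log2 in mdx5cv (adjusted p = 0.00677) and held with scan period as a block (1.99). On the third-period arrays alone it was 2.28. In mdx it was 0.46 and did not pass the test.

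The other probe sets higher in mutants were of smaller size. The zinc importer Slc39a6 was higher by 0.77 ± 0.21 log2 in mdx and 0.68 ± 0.21 in mdx5cv, and the orphan carrier Slc10a3 by 0.68 ± 0.19 and 0.72 ± 0.19. Slc4a3, the anion exchanger AE3, was higher by 0.48 ± 0.13 and 0.54 ± 0.13. In mdx alone the calls were the vitamin C carrier Slc23a2 (0.56 ± 0.15) and Slc3a2, the heavy chain of amino acid exchangers (0.46 ± 0.14). In mdx5cv alone they were the pyrimidine nucleotide carrier Slc25a36 (0.58 ± 0.20) and the zinc carrier Slc30a4 (0.41 ± 0.14). None of these 7 genes kept its call with scan period as a block, and Slc3a2, Slc25a36 and Slc30a4 had lost it on the same 30 arrays without the block (adjusted p = 0.105, 0.0944 and 0.139). Leaving out 1 array ended the call of Slc3a2 in 6 of 32 fits (adjusted p up to 0.0704), of Slc39a6 in mdx5cv in 9 (up to 0.0691), of Slc25a36 in 26 (up to 0.109) and of Slc30a4 in 21 (up to 0.0994). The worst cases were C57BL10 quadriceps sample 2, C57BL10 gastroc sample 2, C57BL10 EDL sample 1 and mdx5cv soleus sample 2, in that order.

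**Figure D3:**
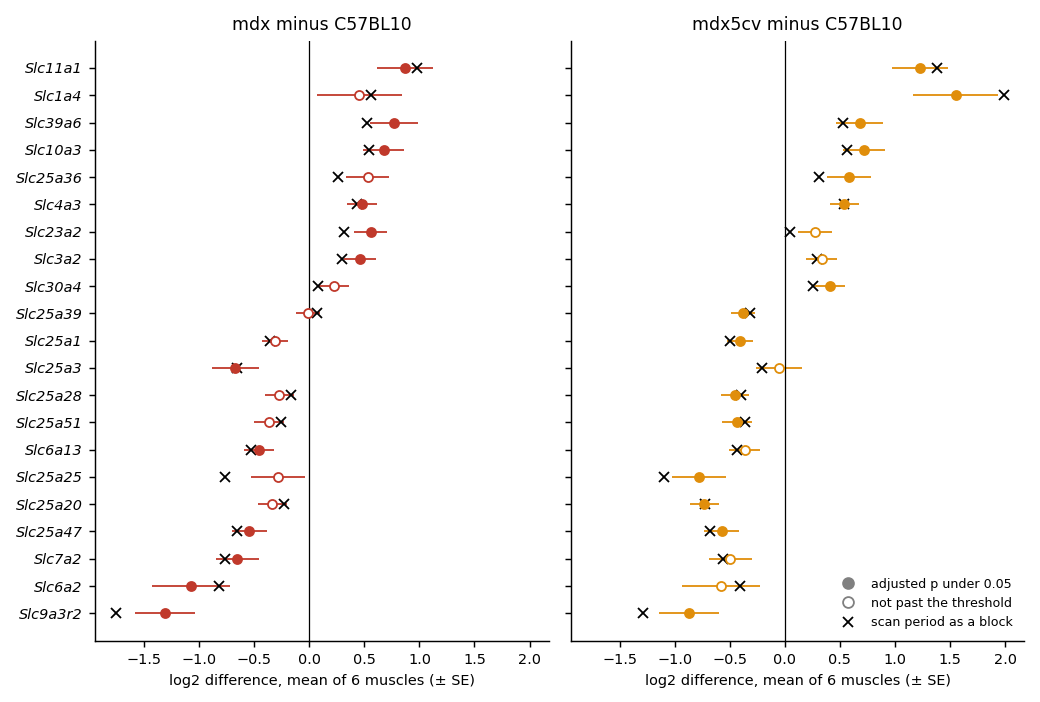
Log2 difference from C57BL10, as the mean of 6 muscles with its standard error, for the 21 solute carrier probe sets called in mdx (left) or mdx5cv (right). Filled points are calls, open points are not, and black crosses give the estimate with scan period as a block on 30 arrays, at 1.99 for Slc1a4 in mdx5cv and at -1.76 for Slc9a3r2 in mdx.

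The largest decrease was in a gene that is no carrier. Slc9a3r2, a scaffold that binds sodium-proton exchangers and other membrane proteins, ran from 96.6 to 553 with a median of 376 in mdx, from 251 to 764 with a median of 472 in mdx5cv, and from 467 to 1337 with a median of 1020 in C57BL10. Both mutant means lay below C57BL10 in 6 of 6 muscles, with overlapping ranges over all arrays. The differences were -1.31 ± 0.27 log2 for mdx (adjusted p = 0.00141) and -0.88 ± 0.27 for mdx5cv (adjusted p = 0.0307). The mdx call held with scan period as a block (-1.76). The mdx5cv call held there too (-1.29), but was lost in 10 of 32 fits that left out 1 array (-0.74, adjusted p = 0.0773 without mdx5cv TA sample 1).

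Mitochondrial carriers made up most of the decreases in mdx5cv. Of their 20 tested probe sets 7 were lower and 1 higher in mdx5cv, against 4.43% lower and 10.6% higher over all tested, with a median difference of -0.34 log2, against 0.02. With scan period as a block only Slc25a20 and Slc25a25 of the 7 kept their calls. In mdx 2 were lower and 0 higher, against 5.81% and 10.1% over all tested, with a median of -0.21 against -0.06. Slc25a20, which carries acyl-carnitines into the matrix for fatty acid oxidation, ran from 3142 to 7532 with a median of 5589 in mdx5cv and from 4753 to 13564 with a median of 8035 in C57BL10. The mdx5cv mean was lower in 6 of 6 muscles, by -0.05 log2 in TA to -1.11 in the quadriceps. The ranges overlapped, and the mean difference was -0.73 ± 0.13 log2 (adjusted p = 2.43e-04). It kept its call with period as a block (-0.72) and without any single array, and the difference was -0.83 in the third period alone. In mdx, with 5117 to 10697 and a median of 6030, the difference was -0.34 ± 0.13 (adjusted p = 0.0832).

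The other decreases in mdx5cv were of Slc25a25, the ATP-magnesium phosphate carrier (-0.78 ± 0.24), the iron carrier Slc25a28 (-0.45 ± 0.13), Slc25a51 (-0.43 ± 0.14 with 1 of 2 probe sets), Slc25a1 (-0.41 ± 0.12 with 1 of 2) and Slc25a39 (-0.38 ± 0.11). Slc25a25 ran from 1469 to 5671 with a median of 3057 in mdx5cv and from 1107 to 8875 with a median of 6076 in C57BL10. Its difference was -1.23 in the third period alone. It lost its call in 9 of 32 fits without 1 array (adjusted p = 0.0709 without mdx5cv EDL sample 2). Slc25a51 lost it in 10 (adjusted p = 0.0788 without C57BL10 soleus sample 2) and Slc25a1 without C57BL10 quadriceps sample 2 (adjusted p = 0.0511). With scan period as a block Slc25a28, Slc25a51, Slc25a1 and Slc25a39 did not pass (adjusted p = 0.202, 0.271, 0.0504 and 0.179), and of these Slc25a51 alone did not pass on the same 30 arrays without the block (0.114).

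Some of these differences were smaller without the diaphragm. Liver genes were also lower in mdx5cv diaphragm, and their part in these differences was not tested. The mdx5cv difference of Slc25a47 was -1.77 log2 in the diaphragm and -0.58 ± 0.16 in the mean of 6 muscles, and without the diaphragm -0.34 (adjusted p = 0.25). Without the diaphragm, Slc25a1 gave -0.22 (adjusted p = 0.33) and Slc25a39 -0.25 (adjusted p = 0.22). Slc25a25 (-0.72, adjusted p = 0.0867) and Slc25a51 (-0.43, adjusted p = 0.0673) also lost their calls there with differences close to those of all 6 muscles, while Slc25a20 and Slc25a28 kept theirs. The fibre gene list had medians of 15.02 in mdx, 14.8 in mdx5cv and 15.2 in C57BL10 arrays, and the slow-fibre list 12.97, 15.02 and 13.95.

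In mdx 6 probe sets were lower, Slc9a3r2 and 5 carriers. Slc6a2, the noradrenaline carrier of sympathetic nerve endings, was lower by -1.07 ± 0.36 log2 with its 1 tested probe set of 2, Slc25a3 by -0.67 ± 0.21, Slc7a2 by -0.66 ± 0.19, Slc25a47 by -0.54 ± 0.16 and Slc6a13 by -0.46 ± 0.14. Slc6a2 had a median of 256 and a highest value of 1664.5 in mdx, against a median of 745 and a highest value of 1321 in C57BL10, and its other probe set ran from 90.9 to 969 in mdx and from 108 to 890 in C57BL10. None of the 5 kept its call with scan period as a block, and on the same 30 arrays without the block only Slc25a3 did. The call of Slc6a2 ended in 17 of 32 fits without 1 array (adjusted p = 0.0881 without C57BL10 EDL sample 2) and that of Slc25a3 in 10 (adjusted p = 0.0774 without C57BL10 diaphragm sample 1). Slc6a13 lost it in 5 (adjusted p = 0.0674 without C57BL10 quadriceps sample 2) and Slc7a2 without mdx soleus sample 2 (adjusted p = 0.0530).

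**Figure D4:**
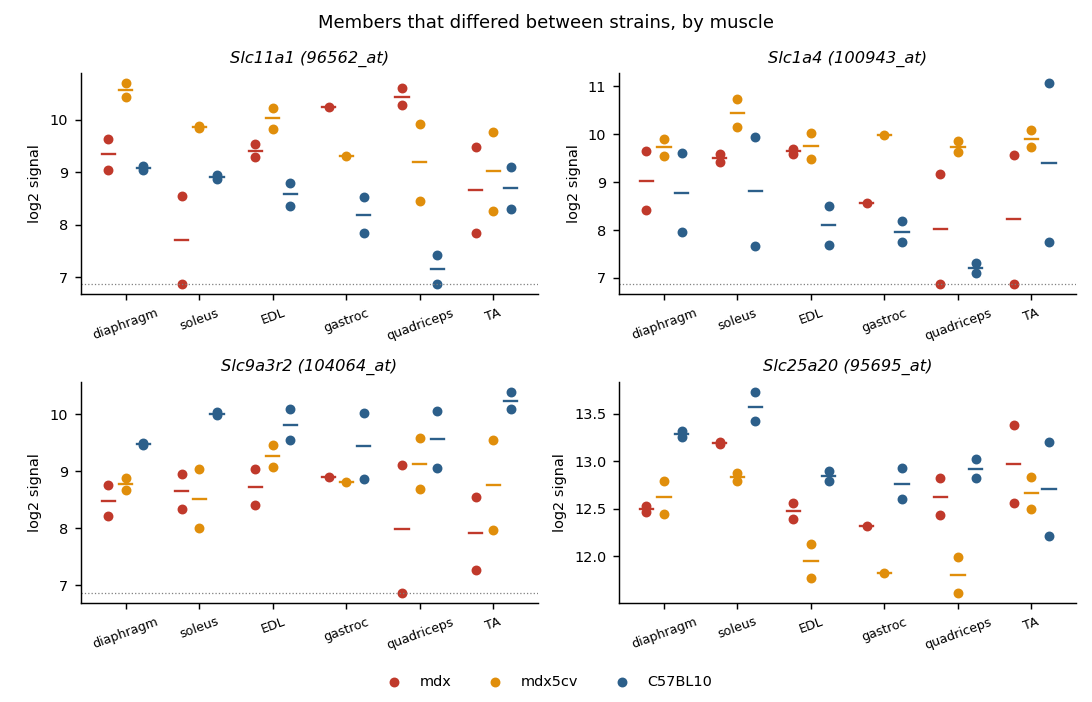
Log2 signal of Slc11a1, Slc1a4, Slc9a3r2 and Slc25a20 on each array by muscle (x), with mdx, mdx5cv and C57BL10 from left to right, bars at group means and a dotted line at the floor. Slc9a3r2 and, in mdx5cv, Slc25a20 lie below C57BL10 in the mean of every muscle, while Slc11a1 in mdx soleus lies below C57BL10.

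mdx5cv was also compared with mdx. None of the 94 member probe sets passed the limma threshold (12 at an unadjusted p under 0.05), against 0.523% of all tested (0.349% higher and 0.174% lower). With scan period as a block 2 did, Slc1a4 (higher in mdx5cv) and Slc25a20 (lower), against 1.09% of all tested in that fit. Slc25a20 differed by -0.40 log2 without the block (adjusted p = 0.320).

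The list of carriers that serve the energy supply of the fibre had 8 of 10 genes tested. In mdx only Slc25a3 was called and in mdx5cv only Slc25a20, both lower. Slc25a4, the muscle adenine nucleotide carrier ANT1, ran from 49384 to 202900 with a median of 60429 in mdx, from 34820 to 82323 with a median of 54370 in mdx5cv, and from 44340 to 116529 with a median of 66373 in C57BL10. The ranges overlapped widely, with differences of 0.02 ± 0.24 log2 in mdx and -0.24 ± 0.24 in mdx5cv (adjusted p = 0.958 and 0.603). The creatine carrier Slc6a8 differed by -0.26 and -0.02 log2, the lactate carrier Slc16a1 by -0.33 and 0.04, the carnitine carrier Slc22a5 by -0.46 and -0.14, Slc25a11 by -0.06 and -0.01 and the glucose carrier Slc2a3 by -0.56 and -0.71, and none passed the test.

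The soleus, the slowest of these muscles, was compared with the EDL, gastroc, quadriceps and TA. In the soleus 10 of 94 member probe sets differed, or 10.6%, against 6.98% of all tested, with 6 higher, against 4.09%, and 4 lower, against 2.88%. Slc16a1, the monocarboxylate carrier through which oxidative fibres take up lactate, ran from 539 to 1091 with a median of 873 in the soleus and from 169 to 939 with a median of 415 in fast muscle. The ranges overlapped only through mdx5cv TA (939 and 630), mdx EDL sample 2 (595.5) and C57BL10 EDL sample 2 (732), and the difference was 1.09 ± 0.21 log2 (adjusted p = 0.00112).

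Slc25a20 had 7106 to 13564 with a median of 9325.5 in the soleus, against 3142 to 10697 with a median of 6030.5 in fast muscle (0.71 ± 0.14 log2, adjusted p = 0.00189). The remaining calls upward were Slc66a2 (0.72 ± 0.18), the glutamine carrier Slc1a5 (0.69 ± 0.21), the potassium-chloride exporter Slc12a4 (0.66 ± 0.16) and the magnesium carrier Slc41a1 (0.50 ± 0.15). The steepest decrease was of Slc37a4, with 1785 to 4588 and a median of 2101 in the soleus, against 2375 to 10835 and a median of 6792 in fast muscle (-1.32 ± 0.19 log2, adjusted p = 4.69e-05). Slc8a1 was lower by -0.76 ± 0.18, Slc7a2 by -0.70 ± 0.21 and Slc38a4 by -0.60 ± 0.17.

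Without the EDL 7 of the 10 calls held, and with C57BL10 groups alone 3 did, all lower in the soleus. Of all probe sets tested, 7.3% and 2.82% were called in these fits. The calls lost in C57BL10 alone kept their direction. The differences there were 1.11 for Slc16a1, 1.00 for Slc1a5, 0.93 for Slc12a4, 0.88 for Slc66a2 and 0.76 log2 for Slc25a20. Slc41a1 gave 0.33 and Slc7a2 -0.89. Leaving out 1 array ended calls of Slc1a5 in 18 of 32 fits, of Slc41a1 in 25, of Slc7a2 in 23 and of Slc38a4 in 7, in each case furthest without mdx soleus sample 2 (adjusted p = 0.184, 0.181, 0.271 and 0.233). Slc66a2 lost it in 3 fits (adjusted p = 0.0801 without mdx5cv soleus sample 1) and Slc12a4 in 2 (adjusted p = 0.0641 without C57BL10 soleus sample 2). The slow-fibre list averaged a log2 signal of 15.9 to 16.99 in the soleus. The list of hepatocyte-enriched carriers had 3 of 6 tested probe sets lower in the soleus, Slc37a4, Slc7a2 and Slc38a4, with 0 higher, against 2.88% lower and 4.09% higher over all tested. In TA, a fast muscle here, the liver gene list averaged 10.6 in C57BL10, 8.68 in mdx and 8.04 in mdx5cv. Its soleus means were 7.545, 7.56 and 7.43. The part of TA in these 3 decreases was not tested. Slc7a2 did not pass with scan period as a block (-0.67, adjusted p = 0.0908) or on the same 30 arrays without it (0.0932). For Slc25a4, Slc25a11, Slc25a3, Slc2a3, Slc6a8 and Slc22a5 the soleus differences were -0.04, 0.05, -0.20, -0.77, 0.34 and 0.15 log2, and none passed the test.

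**Figure D5:**
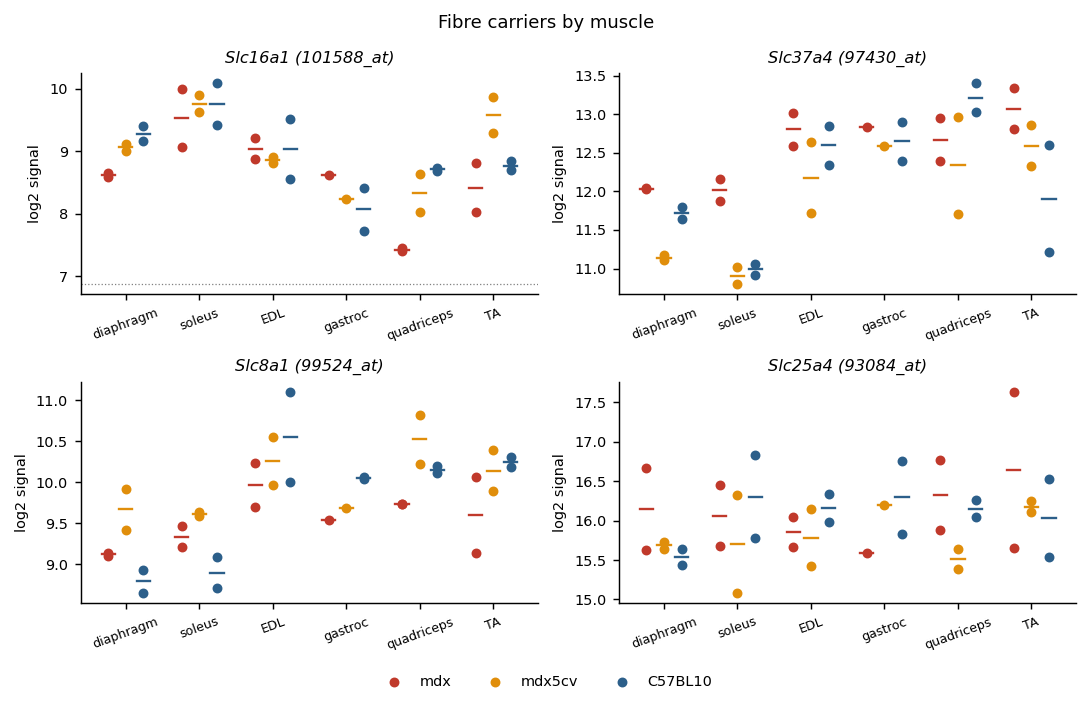
Log2 signal of Slc16a1, Slc37a4, Slc8a1 and Slc25a4 on each array by muscle (x), with mdx, mdx5cv and C57BL10 from left to right and bars at group means. Slc16a1 lies high in the soleus and in mdx5cv TA, Slc37a4 lies low in the soleus and diaphragm, and Slc25a4 overlaps across muscles.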

How the data were processed

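Per the labels, RNA pooled from 5 mice was hybridised to 1 array per sample. The values deposited by the authors are linear signal intensities of 12488 probe sets, scaled per array: the 2% trimmed means of the columns lay at 1500 to 1501. The signal algorithm and scaling are not given in the sources used here. Array type, lot and scan day were read from 30 experiment files. Probe set names came from the platform annotation (1 symbol for 10855 probe sets, several for 396, none for 1237), and all 172 member symbols matched RefSeq.

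Signals below 117.5, the 20th percentile, were raised to that floor before the log2 step. Control probe sets (66) did not enter the tests. Tested were the 7453 probe sets whose mean log2 value over all columns reached the 40th percentile. The 18 group means were modelled in limma 3.58.1 (R 4.3.3) with a trended prior, leaving 16 residual degrees of freedom, and the procedure was tested on simulated data. Contrasts gave muscles and strains equal weight. P-values are two-sided, Benjamini-Hochberg adjusted over all 7453. A group with a lone array takes its spread from the other groups. Scan days over 30 days apart formed periods, and the block fit left out the 4 arrays with no scan day and counted the lone fourth-period array with the third period.

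Members, lists and comparisons were chosen with earlier results of these data known. Named are up to 12 highest and 12 lowest probe sets past the threshold per comparison, all hepatocyte-enriched carriers in the diaphragm and all fibre energy carriers between strains and in the soleus, with every probe set of a gene where they disagree. Other genes named in the diaphragm comparison were chosen after their values were seen. Probe set levels are not compared between genes. Alternatives were quantile normalization, no filter, another floor, an untrended prior, a single probe set per gene, sample number or scan period as a block, the 30 arrays with a scan day alone, the copied columns, the low-correlation arrays, subsets of muscles or strains, and each of 32 arrays left out in turn.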

Additional observations from a re-analysis of the deposited data

Results flagged for a closer look

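For 9 probe sets 1 mutant strain lay wholly above C57BL10 in some muscles and wholly below it in others. All 9 are among those named in the comparisons of mutants with C57BL10. The share of all probe sets tested with this pattern is not given here, so 9 cannot be called many or few. Groups with so few arrays can also separate by chance in either direction. The value given is the difference between the highest and the lowest of these muscle changes, in log2. It was not tested for the single strain. The joint test over 6 muscles, with both mutants averaged, passed for none of these probe sets (adjusted p of 0.384 or more).

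In mdx, Slc11a1 was higher in EDL and quadriceps and lower in soleus (4.48). Its 2 arrays at the floor, of C57BL10 quadriceps and mdx soleus, both enter that value. Slc30a4 was higher in mdx soleus and lower in mdx quadriceps (1.08). In mdx5cv, Slc7a2 was higher in quadriceps and lower in diaphragm and TA (1.87), Slc6a13 higher in EDL and lower in diaphragm (1.43), and Slc16a1 higher in TA and lower in diaphragm and quadriceps (1.20). Also in mdx5cv, Slc25a11 was higher in diaphragm and TA and lower in quadriceps (1.34), Slc25a4 higher in diaphragm and lower in quadriceps (0.79), and Slc6a8 higher in TA and lower in soleus (1.05). Slc25a1 was higher in EDL and soleus and lower in diaphragm, quadriceps and TA (1.53).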

How the results depend on the processing

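The number of arrays limits precision, and most groups rest on 2. The numbers of members called kept within 1.5 times of the reported counts in most settings, with these exceptions. For mdx against C57BL10 the 12 calls became 23 without the 2 low-correlation arrays and 7 without the diaphragm, against 21.6% and 13.5% of all tested. For mdx5cv against C57BL10 the 15 calls became 7 with scan period as a block, on 30 arrays where 15 were called without the block. They became 6 without the diaphragm. Of all tested, 11% were called with the block and 12.5% without the diaphragm. mdx5cv against mdx gained 2 calls with the period block, against 1.09% of all tested. For the soleus the 10 calls became 6 with no filter and 3 in C57BL10 alone, against 3.5% and 2.82% of all tested. The joint test of 6 muscles gave 2 with the gastroc copies kept in place of the quadriceps ones, against 1.27% of all tested. The diaphragm contrast of the mutant change gave 1 call each with quantile normalization, the floor at the 5th percentile, the gastroc copies and all 36 columns, and 2 without the low-correlation arrays. Of all tested, 0.255%, 0.268%, 0.362%, 0.268% and 0.644% were called in these fits, in that order. The cause of these shifts was not tested. Leaving out 1 array gave 8 to 21 calls for mdx, 10 to 22 for mdx5cv, 0 for mdx5cv against mdx, 31 to 40 for the diaphragm, 4 to 13 for the soleus, 0 to 12 for the joint test and 0 to 2 for the diaphragm contrast. Shares over all tested in those fits are not given here.

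Deviations of same-numbered samples from their group means correlated at -0.226 to 0.411 between strains of a muscle and passed 0.1 in 9 of 15 pairs, all those of EDL and soleus among them. Of the 15 third-period arrays 13 are numbered 2, so the number goes partly with scan period. Since not every pair passed 0.1, the number was not used as a pairing. A replicate block of sample number gave 13, 16, 0, 37 and 12 calls for mdx, mdx5cv, mdx5cv against mdx, diaphragm and soleus. Of all tested, 17.1%, 15.9%, 0.59%, 31.6% and 7.73% were called there. It also gave 1 call (Slc38a4) in the joint test, against 0.738% of all tested. In the diaphragm contrast of the mutant change it gave 2 (Slc25a15 and Slc38a4), against 0.376%. Over the named probe sets, 308 of the recomputed values lost the threshold, 8 gained it and 0 changed sign.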
